A study of Mus musculus with 2 samples.

Results

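The periosteum, the connective tissue sheath of bone, holds genes for an elastic fibre system, and 10 of them were followed here in single cells of both libraries of the series. They were chosen by name, from the symbol column of the deposited matrices, and all 10 were present among 31253 listed genes in both. They are Eln, which encodes elastin; the fibrillin genes Fbn1 and Fbn2; the microfibril-associated protein genes Mfap2, Mfap4 and Mfap5; and the fibulin genes Fbln1, Fbln2, Fbln5 and Efemp1. Cells came from the femurs and tibias of 8-week mice by enzymatic digestion, were sorted for the Prx1 label and were captured on BD Rhapsody, a microwell platform that tags each RNA molecule with a unique molecular identifier (UMI) at its 3′ end. One library was made from Prx1 Cre; Ai9/+ mice, here the control, and the other from Prx1 Cre; Ai9/+; Piezo1 fl/fl mice, in which the mechanically gated channel gene Piezo1 is flanked by loxP sites. Both carry Prx1 Cre, whose promoter drives Cre in limb mesenchyme, and the Ai9 allele, a Cre-dependent tdTomato reporter, so the only labelled difference is the Piezo1 allele. Each genotype had 1 library, and the number of animals behind each is not given in the sources used here. All differences between libraries are therefore differences between 2 samples, with no replicate check and no test.

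Elastic fibres consist of a core of cross-linked elastin laid down on a scaffold of fibrillin microfibrils. Tropoelastin is secreted as a soluble monomer, is carried to the microfibrils by fibulins, and is fixed there by lysyl oxidases; microfibrils also exist without elastin, and they hold latent TGF-beta through its binding proteins. In connective tissue these genes are used mainly by fibroblasts, tendon cells, smooth muscle and endothelium. The outer, fibrous layer of the periosteum is rich in such fibres, whereas the inner layer next to bone is made of osteogenic cells.

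The control matrix held 6118 barcodes with a median of 3633.5 UMIs, and the Piezo1 fl/fl matrix held 7469 with a median of 3327. After filtering, 4418 and 5084 cells remained. Piezo1 itself gave 147 UMIs (5.24 CPM, UMIs per 1000000 UMIs) in the control matrix and 74 UMIs (2.29 CPM) in that of Piezo1 fl/fl, lower in the library labelled as deleted, although 3′ tags can lie outside a deleted exon and so check the label only in part. The libraries shared 50 barcodes, 0.817% of the control and 0.669% of the Piezo1 fl/fl barcodes. Despite the sort, 415 control and 523 Piezo1 fl/fl cells were blood cells, which served as the background for free RNA. Blood and endothelial cells do not derive from the limb mesenchyme in which Prx1 Cre acts.

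Cells were grouped in each library alone, without the 10 genes among the clustering features, and named from marker genes of which none is one of the 10. In the control, 846 Pi16 fibroblast-like, 764 Gdf10 fibroblast-like, 812 SSPC-1-like, 737 SSPC-2-like, 210 tendon-like, 295 mural-like and 173 endothelial-like cells were found, with smaller groups of 60 mature osteoblast-like, 55 lining-like, 33 perineurial-like and 18 chondrocyte-like cells. SSPC-1 and SSPC-2 are the study's names for its pair of skeletal stem and progenitor populations; the first was recognised here by Egfl6, Col8a1 and Fgf18, the second by Tnn, Postn and Lrrc15. In the Piezo1 fl/fl library, 1000 SSPC-1-like, 552 Pi16 fibroblast-like, 225 Gdf10 fibroblast-like, 402 tendon-like, 364 mural-like, 141 endothelial-like, 122 lining-like and 27 chondrocyte-like cells were found. A further 1298 fibroblast-like cells took neither the Pi16 nor the Gdf10 name. Of these, 343 formed a cluster led by Cfd, Cyp2f2 and Adipoq, with no Pi16 or Gdf10 list marker among its 10 leading genes. No control cluster had Adipoq among its leading genes. These 343 cells are part of the fibroblast-like class of the Piezo1 fl/fl library. The 430 cells of its osteogenic cluster 3 carried the SSPC-2 markers Tnn and Prss35, but more preosteoblast markers (Mmp13, Ibsp, Alpl) stood among their leading genes, so this cluster was not named SSPC-2-like. Between libraries, values were therefore compared only for whole classes, such as all fibroblast-like cells (1610 and 2075) or all osteogenic cells (797 and 430).

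Start sites upstream of which sequence could be read were available from RefSeq for 6 of the 10 genes (build GRCm38.p6). The windows of 3 of them, each the 250 bases before the transcription start, are shown because they belong to genes that differed in how they separated SSPC-1-like from SSPC-2-like cells: Fbln1 and Fbln5, higher in the first, and Mfap2, near level in both. They are written 5′ to 3′ on the strand of the gene, with matches to any of 4 searched motifs in capitals.
Fbln1 (chr15:85205699-85205948, + strand): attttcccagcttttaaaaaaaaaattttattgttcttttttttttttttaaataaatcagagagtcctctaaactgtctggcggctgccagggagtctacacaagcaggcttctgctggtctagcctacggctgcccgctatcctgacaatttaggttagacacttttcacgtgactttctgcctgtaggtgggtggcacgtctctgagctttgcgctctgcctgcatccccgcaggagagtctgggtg
Fbln5 (chr12:101819120-101819369, - strand): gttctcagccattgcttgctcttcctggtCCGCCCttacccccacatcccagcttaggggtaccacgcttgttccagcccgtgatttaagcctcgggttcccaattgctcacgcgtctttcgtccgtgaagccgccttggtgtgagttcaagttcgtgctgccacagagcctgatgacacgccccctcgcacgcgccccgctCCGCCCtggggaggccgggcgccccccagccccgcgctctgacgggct
Mfap2 (chr4:141010174-141010423, + strand): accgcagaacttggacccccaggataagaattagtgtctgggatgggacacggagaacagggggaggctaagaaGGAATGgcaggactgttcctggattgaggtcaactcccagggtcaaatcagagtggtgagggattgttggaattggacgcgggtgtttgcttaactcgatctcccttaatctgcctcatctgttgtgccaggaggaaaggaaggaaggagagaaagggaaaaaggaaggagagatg
The motifs, searched on both strands, were TGACTCA (the AP-1 motif), GGAATG (TEAD), GGGCGG (the GC box) and TATAAA (the TATA box), and no match in these windows overlapped another. Of 32817 mouse promoter windows of this length, 4.46% held the AP-1 letters, 12.6% the TEAD letters, 32.7% the GC box and 12.4% the TATA box. The Fbln5 window held 2 GC boxes, beginning 221 and 48 bases before the start, and its GC content was 65.2%. The Mfap2 window held 1 TEAD match at 176 bases, with 51.2% GC, and the Fbln1 window, at 46.4% GC, held none of the 4 motifs. Fbn1, Fbln2 and Efemp1 each held 1 GC box, 185, 16 and 29 bases before the start. The RefSeq starts used for Fbn1 and Fbln2 lie 1555 and 309 bases inside the GENCODE gene spans given below, so their windows do too. Fbln1, Fbln5 and Mfap2 each had 2 windows in the table, and the one whose start was nearest to the GENCODE start was used. These are matches of letters only, and binding was not measured.

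The 10 genes lie on 8 chromosomes. In GRCm38 coordinates with GENCODE vM21 models, Eln spans chr5:134702593-134747323 on the minus strand, Fbn1 chr2:125300594-125507993 (minus), Mfap2 chr4:141010418-141015984 (plus), Mfap4 chr11:61485431-61488900 (plus), Mfap5 chr6:122505845-122529290 (plus), Fbln1 chr15:85205949-85286535 (plus), Fbln2 chr6:91212455-91272540 (plus), Fbln5 chr12:101746565-101819055 (minus) and Efemp1 chr11:28853204-28926743 (plus). Fbn2 lies on chromosome 18 and overlaps Gm26507 on the opposite strand. Exons of Eln, Fbn1 and Mfap4 overlap exons of Gm30003, Gm9913 and Mapk7 on the opposite strand, and the strand setting of the counting is not given in the sources used here. These neighbours gave few UMIs: Gm30003 had 7 in the control library and 4 in the Piezo1 fl/fl library, Gm9913 had 3 and 5, and Mapk7 had 70 and 89.

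The first question was which cells of the periosteum transcribe the elastic fibre system. Fibroblast-like cells gave most of it: in the control they held 63.5% of the UMIs of the 10 genes with 36.4% of the cells, and in the Piezo1 fl/fl library 70.4% with 40.8% of the cells. SSPC-1-like cells held 25.04% and 17.7%, with 18.4% and 19.7% of the cells. Osteogenic cells held only 2.69% and 1.46%, with 18.04% and 8.46% of the cells. These pooled sums weigh most the genes with the most UMIs, and single genes differed. In the control, fibroblast-like cells held 9.90% of Mfap4, 5.76% of Fbn2, 26.3% of Mfap2 and 39.7% of Fbln1 UMIs. SSPC-1-like cells held more of these, at 70.7%, 41.0%, 34.7% and 42.4%. For Eln, Fbn1, Mfap5, Fbln2, Fbln5 and Efemp1, fibroblast-like cells held the larger share. Levels are given per gene as its UMIs over all UMIs of a cell type, in CPM, with exact 95% Poisson intervals that cover counting error only. Since tags are counted at the 3′ end, a level is compared between cell types for 1 gene and not between genes. Fewer cells that transcribe a gene and less RNA per cell cannot be told apart in such sums, so shares of cells with a UMI are added where they bear on a result.

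Among cell types, Eln, Fbn1, Mfap5, Fbln2 and Efemp1 were highest in a fibroblast-like type in both libraries, and Fbln1 joined them in the Piezo1 fl/fl library. For Eln this order was not resolved in the control: Gdf10 fibroblast-like cells gave 530 CPM (508 to 552), endothelial-like cells 522 (467 to 581) and SSPC-1-like cells 510 (489 to 530). Mfap2 and Mfap4 were highest in SSPC-1-like cells in both libraries, and Fbln5 in endothelial-like cells in both. Fbn2 was highest in control mature osteoblast-like cells and in Piezo1 fl/fl lining-like cells. The share of all genes that were highest in a fibroblast-like type was not computed. The Piezo1 fl/fl library also had the other fibroblast-like cells as a type, which the control lacked.

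**Figure D1:**
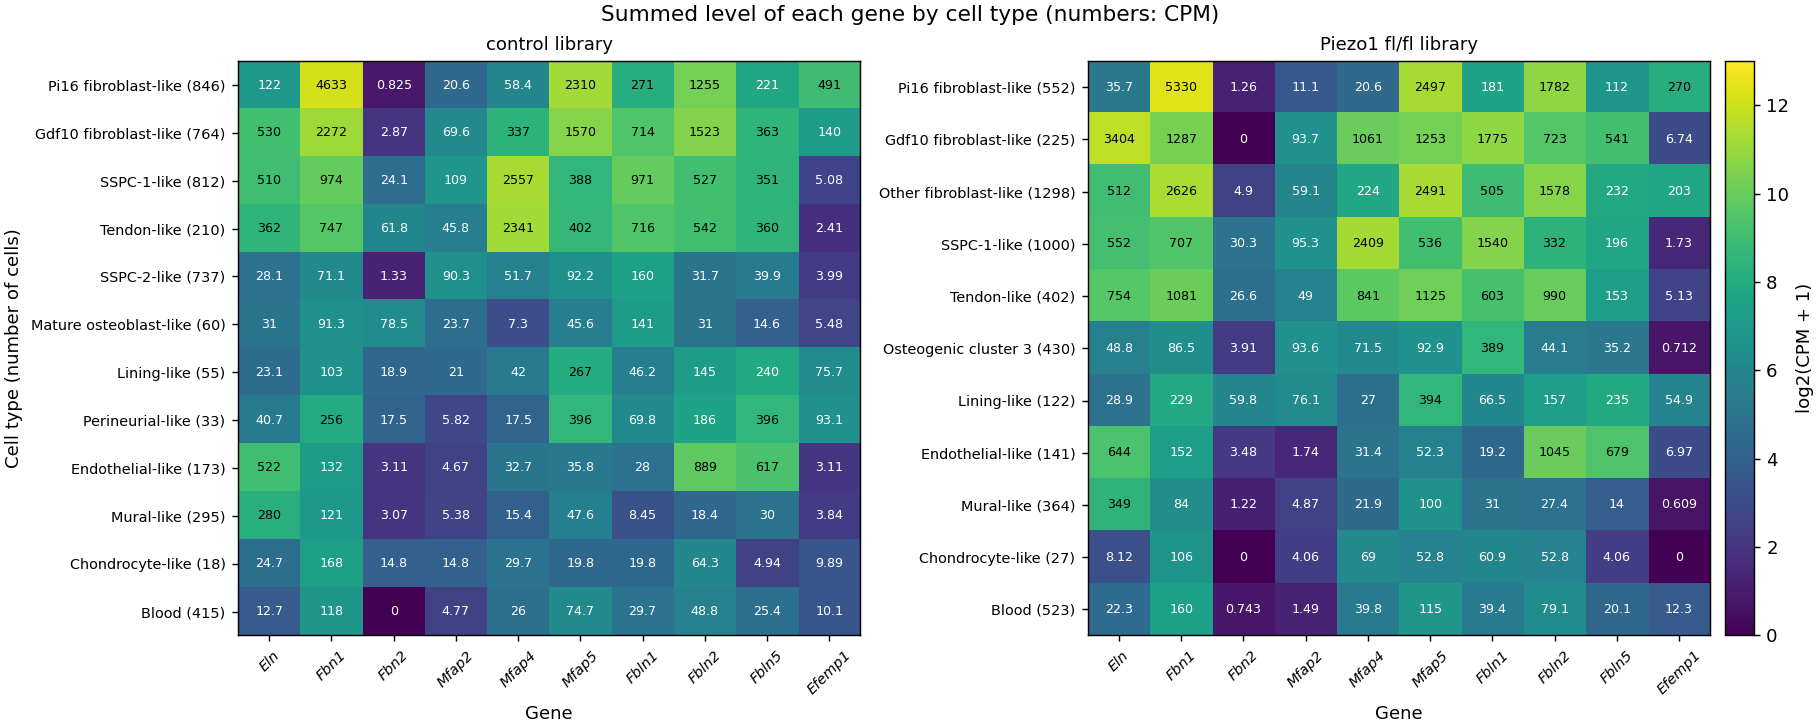
Level of each gene in each cell type, in CPM (numbers) on a colour scale of log2(CPM + 1), for the control library (left) and the Piezo1 fl/fl library (right); rows are cell types with their number of cells and columns are genes. Fbn1, Mfap5, Fbln2 and Efemp1 are brightest in the fibroblast-like rows, Mfap4 in the SSPC-1-like rows, and the SSPC-2-like row and osteogenic cluster 3 are dark for Eln (28.1 and 48.8 CPM).

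Elastin, the core of the fibre, was transcribed in the control at similar levels in Gdf10 fibroblast-like, SSPC-1-like and endothelial-like cells, with the values given above. There it ran at 362 CPM (329 to 397) in tendon-like cells, 280 (252 to 311) in mural-like cells and 122 (112 to 132) in Pi16 fibroblast-like cells. SSPC-2-like cells had 28.1 CPM (23.8 to 33.0), mature osteoblast-like cells 31.0 and blood 12.7 (8.15 to 18.9). In the Piezo1 fl/fl library Gdf10 fibroblast-like cells stood far above the rest, at 3404 CPM (3310 to 3499), followed by tendon-like cells at 754 (718 to 792) and endothelial-like cells at 644 (580 to 714). In every control cell type most cells had no Eln UMI. Among control SSPC-1-like cells 41.4% had one, among endothelial-like cells 45.7%, among Gdf10 fibroblast-like cells 37.8%, and among SSPC-2-like cells 13.3%, against 5.30% of blood cells at a median depth of 3767 UMIs, less than the 5217 of SSPC-1-like cells. After every cell was thinned to 2500 UMIs these shares were 33.2%, 45.8%, 29.8%, 6.51% and 2.81%.

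Eln was unevenly spread over cells. The 10 cells with the most Eln gave 30.4% of its UMIs in control SSPC-1-like cells and 33.3% in Gdf10 fibroblast-like cells. Among the 402 tendon-like cells of the Piezo1 fl/fl library, 10 cells gave 1404 of 1617 UMIs, or 86.8%, and the highest single cell gave 380. The tendon-like Eln level of that library was thus set by a few cells, and only 17.2% of its cells had a UMI, fewer than the 25.7% in the control. By contrast the Piezo1 fl/fl Gdf10 fibroblast-like cells had Eln in 86.7% of cells (77.9% after thinning), with a median of 7 UMIs per cell.

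Elastin is also a product of vascular smooth muscle. Mural-like cells were divided by whether smooth muscle markers (Myh11, Acta2, Tagln, Cnn1) or pericyte markers (Kcnj8, Abcc9, Rgs5, Vtn) gave the larger share of their list, which is a range and not a cell type; 32 of 295 control and 48 of 364 Piezo1 fl/fl cells lay within 2-fold of the limit. Eln was 270 CPM (239 to 304) in the smooth muscle side and 320 (258 to 393) in the pericyte side of the control, with overlapping intervals. The Piezo1 fl/fl values were 399 (364 to 436) and 215 (174 to 263), and these did not overlap. Fbn1 was lower on the smooth muscle side in both libraries, at 57.3 against 348 CPM in the control and at 64.8 against 139 in the other. Only the control pericyte value was above blood, which had 118 CPM in the control library and 160 CPM in that of Piezo1 fl/fl, so the other 3 values were not distinguished from free RNA.

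Fbn1, which encodes the main fibrillin of adult microfibrils, was a gene of fibroblast-like cells. Its control levels were 4633 CPM (4573 to 4694) in Pi16 fibroblast-like and 2272 (2226 to 2318) in Gdf10 fibroblast-like cells. Below them came 974 CPM (946 to 1003) in SSPC-1-like and 747 (700 to 797) in tendon-like cells. Nearly every Pi16 fibroblast-like cell had a UMI, 97.5% of them in the control and 99.1% in the other library, and the 10 highest cells gave only 8.19% and 8.92% of the UMIs. SSPC-2-like cells, at 71.1 CPM (64.1 to 78.7), lay below blood at 118 (103 to 135), so their Fbn1 was not distinguished from free RNA. In the Piezo1 fl/fl library Pi16 fibroblast-like cells gave 5330 CPM (5258 to 5402), the other fibroblast-like cells 2626 and Gdf10 fibroblast-like cells 1287. Whole fibroblast-like classes gave 3540 and 3310 CPM in the control and Piezo1 fl/fl libraries, and held 83.0% and 86.3% of all Fbn1 UMIs.

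Fbn2, a fibrillin used mostly in developing tissue, was rare. It gave 114 UMIs in control SSPC-1-like cells (24.1 CPM, 19.9 to 29.0), 77 in tendon-like cells (61.8 CPM, 48.8 to 77.2) and 43 in mature osteoblast-like cells (78.5 CPM, 56.8 to 106). Intervals of the last pair overlapped. Control fibroblast-like cells had 1.77 CPM (1.01 to 2.88), and control blood had none, which allows up to 1.96 CPM. In the Piezo1 fl/fl library the level was 59.8 CPM (45.8 to 76.6) in lining-like, 30.3 (25.5 to 35.7) in SSPC-1-like and 26.6 (20.1 to 34.4) in tendon-like cells.

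The 3 microfibril-associated protein genes were each distributed in their own way. Mfap4, whose product binds elastin and collagen, was highest in SSPC-1-like and tendon-like cells in the control. It stood there at 2557 CPM (2511 to 2603) and 2341 (2256 to 2427), against 337 in Gdf10 fibroblast-like, 58.4 in Pi16 fibroblast-like and 51.7 in SSPC-2-like cells. Its Piezo1 fl/fl order was SSPC-1-like cells at 2409 CPM, Gdf10 fibroblast-like cells at 1061 and tendon-like cells at 841. SSPC-1-like cells had a Mfap4 UMI in 91.9% of control and 94.6% of Piezo1 fl/fl cells, against 8.19% and 6.69% of blood cells, and they held 70.7% and 66.9% of all Mfap4 UMIs. Mfap5, whose product MAGP-2 binds fibrillin and carries an RGD site, followed Fbn1. It was 2310 CPM (2267 to 2353) in Pi16 fibroblast-like and 1570 (1532 to 1609) in Gdf10 fibroblast-like cells of the control, 402 in tendon-like cells, 388 in SSPC-1-like cells and 92.2 in SSPC-2-like cells. Piezo1 fl/fl levels were 2497 CPM (2449 to 2547) in Pi16 fibroblast-like and 2491 (2456 to 2528) in the other fibroblast-like cells, which did not differ beyond counting error. Mfap2, which encodes the fibrillin-binding protein MAGP-1, was the member that osteogenic cells shared. The control had 109 CPM (100 to 119) among SSPC-1-like cells, 90.3 (82.3 to 98.8) among SSPC-2-like cells and 69.6 (61.9 to 78.1) among Gdf10 fibroblast-like cells. Shares of cells with a Mfap2 UMI were 39.0% for SSPC-1-like cells and 39.3% for SSPC-2-like cells against 1.20% of blood cells; the Piezo1 fl/fl values were 33.0%, 38.8% in osteogenic cluster 3 and 0.765%.

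Among the fibulins, which bind tropoelastin or fibrillin, Fbln1 was most even over the mesenchyme. In the control it gave 971 CPM in SSPC-1-like, 716 (670 to 765) in tendon-like, 714 (688 to 740) in Gdf10 fibroblast-like, 271 (256 to 286) in Pi16 fibroblast-like and 160 (149 to 171) in SSPC-2-like cells. Tendon-like and Gdf10 fibroblast-like cells did not differ beyond their counting error. Piezo1 fl/fl cells had 1775 CPM (1708 to 1844) in the Gdf10 fibroblast-like and 1540 (1504 to 1576) in the SSPC-1-like cluster. Fbln2 was 1523 CPM (1486 to 1561) in Gdf10 fibroblast-like and 1255 (1224 to 1287) in Pi16 fibroblast-like cells, then 889 (818 to 965) in endothelial-like cells. SSPC-2-like cells had 31.7 CPM of Fbln2 (27.1 to 36.9), below the 48.8 of blood. Fbln5, needed for elastin deposition on cells, was 617 CPM (557 to 680) in endothelial-like cells, 396 (307 to 501) in the 33 perineurial-like cells, 363 in Gdf10 fibroblast-like, 360 in tendon-like and 351 in SSPC-1-like cells. The last 3 could not be separated, with intervals of 345 to 381, 327 to 394 and 334 to 368. Fbln5 in mural-like cells was only 29.95 CPM (21.3 to 40.9), close to the 25.4 of blood.

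Efemp1, which encodes fibulin-3, was the most restricted of the 10. Fibroblast-like cells held 95.8% of its control UMIs and 95.7% of its Piezo1 fl/fl UMIs. It gave 491 CPM (472 to 511) in Pi16 fibroblast-like and 140 (128 to 151) in Gdf10 fibroblast-like cells of the control, 75.7 in lining-like and 93.1 in perineurial-like cells. In SSPC-1-like cells it was 5.08 CPM (3.25 to 7.56), not above the 10.1 of blood (6.06 to 15.7), and 2.46% of these cells had a UMI against 1.93% of blood cells. The Piezo1 fl/fl library had 270 CPM (255 to 287) in Pi16 fibroblast-like and 203 (193 to 214) in the other fibroblast-like cells, but only 6.74 (3.23 to 12.4) in Gdf10 fibroblast-like cells, where blood had 12.3 (8.44 to 17.2).

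The second comparison, the one the study's cell types invite, was between SSPC-1-like cells and SSPC-2-like cells. In the control 8 of the 9 genes with 50 or more UMIs were at least 2-fold higher in SSPC-1-like cells and none was 2-fold lower; Efemp1 had too few UMIs. Of all 9663 genes with that many UMIs, 12.9% were 2-fold higher and 4.94% were 2-fold lower. The median log2 ratio was 3.77 for the members and 0.22 for all genes. In the Piezo1 fl/fl library, with osteogenic cluster 3 in place of SSPC-2-like cells, again 8 of 9 were higher and none lower, against 10.5% higher and 5.16% lower of 8976 genes, and the medians were 2.89 and 0.15. The comparison rests on 1 library at a time, and the values are ratios with exact conditional 95% intervals for counting error.

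Mfap4 had the widest gap, with 2557 CPM against 51.7 CPM and a log2 ratio of 5.63 (5.45 to 5.81), and 5.07 (4.87 to 5.28) in the Piezo1 fl/fl library. Eln followed with 4.17 (3.94 to 4.43) in the control, an 18.1-fold difference, and 3.49 (3.25 to 3.76) in the Piezo1 fl/fl library. Fbn2 reached 4.09 on few UMIs, with a wide interval of 3.09 to 5.53. For Fbln2 the control log2 ratio was 4.05 (3.83 to 4.29) and for Fbn1 3.77 (3.62 to 3.93); for both, the SSPC-2-like level was under that of blood and not distinguished from free RNA. Smaller gaps belonged to Fbln5 at 3.13, Fbln1 at 2.60 (2.50 to 2.71) and Mfap5 at 2.07 (1.93 to 2.22). Mfap2 was the exception: 0.27 (0.09 to 0.46) in one library, the control, and 0.03 (-0.20 to 0.25) in the other, an interval that spans 0. Of the promoters printed above, those of Fbln1 and Fbln5 thus belong to genes that were 6.07-fold and 8.77-fold higher in SSPC-1-like cells, and that of Mfap2 to a gene that was 1.21-fold higher.

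**Figure D2:**
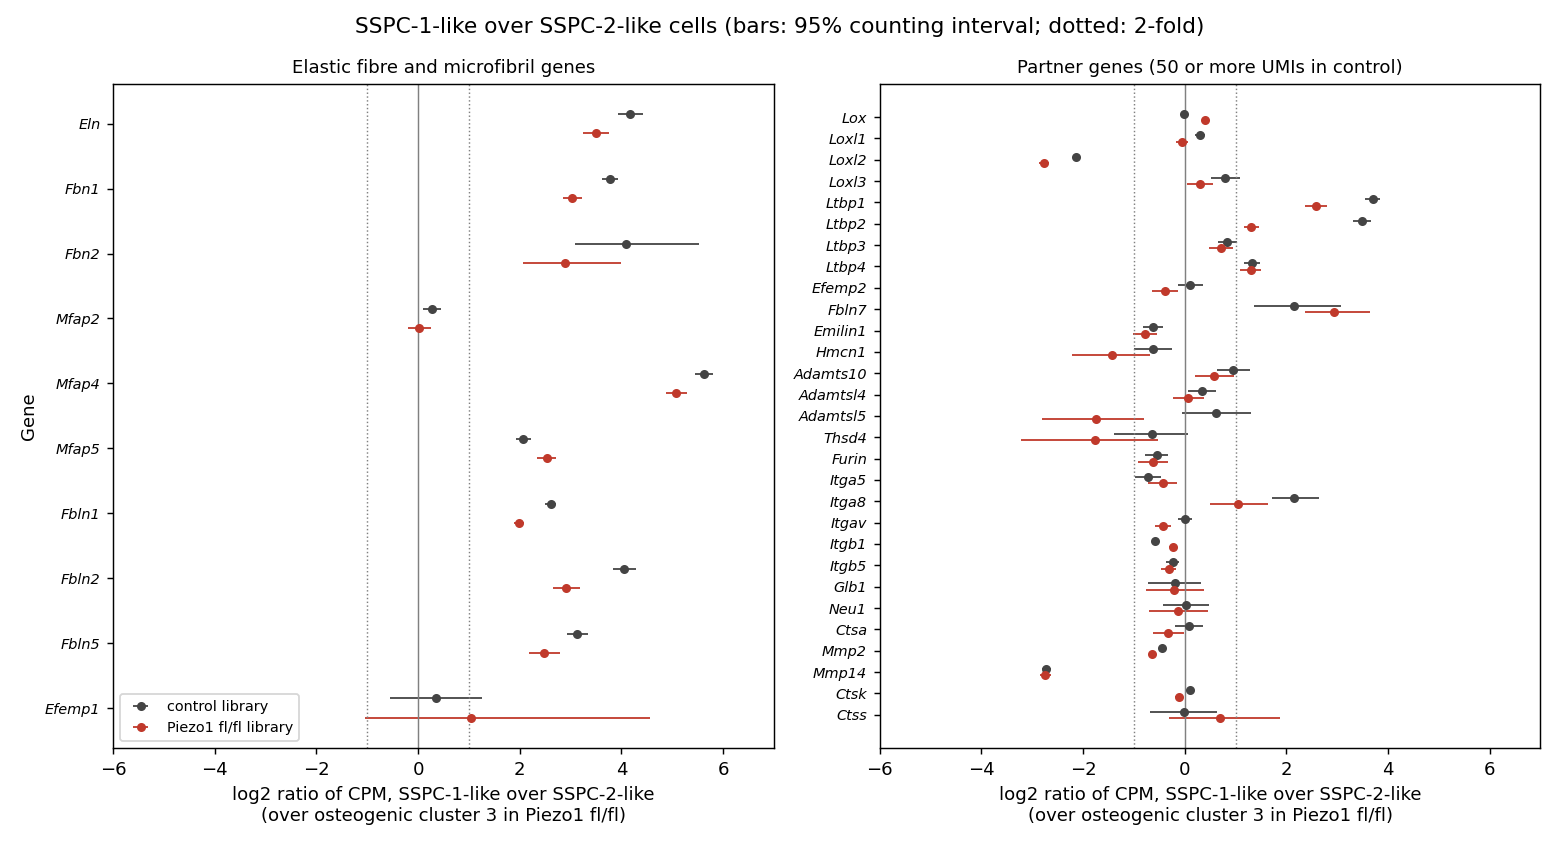
Log2 ratio of the CPM of SSPC-1-like cells to that of SSPC-2-like cells (to that of osteogenic cluster 3 in the Piezo1 fl/fl library) for the 10 genes (left) and for partner genes with 50 or more UMIs in the control (right); points are single libraries, bars are exact 95% counting intervals and dotted lines mark 2-fold. All members but Mfap2 and Efemp1 lie to the right of the 2-fold line in both libraries, whereas the partners scatter around 0 with Ltbp1 and Ltbp2 on the right and Mmp14 and Loxl2 on the left.

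Partners of the fibre did not share this pattern as a group. A list of 35 partner genes covered cross-linking enzymes, latent TGF-beta binding proteins, assembly factors, integrins, the elastin receptor complex and elastin-degrading proteases. In the control 29 had enough UMIs, of which 5 were at least 2-fold higher in SSPC-1-like cells (Ltbp1, Ltbp2, Ltbp4, Fbln7 and Itga8) and 2 lower (Loxl2 and Mmp14), with a median log2 ratio of 0.02. Among 28 measured in the Piezo1 fl/fl library, 6 were higher (Loxl4, Ltbp1, Ltbp2, Ltbp4, Fbln7 and Itga8) and 4 lower (Loxl2, Hmcn1, Mmp9 and Mmp14), with a median of -0.17. Of all genes, 12.9% were higher and 4.94% lower in the control, and 10.5% and 5.16% in the Piezo1 fl/fl library. All-gene medians were 0.22 and 0.15. By list, 3 of 4 latent TGF-beta binding proteins were higher in both libraries. None of 3 elastin receptor genes differed 2-fold either way. Of the assembly factors, 1 of 9 was higher in the control, and 1 of 7 was higher and 1 lower in the Piezo1 fl/fl library. Of the proteases, 1 of 4 was lower in the control and 2 of 4 in the Piezo1 fl/fl library.

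Ltbp1 and Ltbp2, microfibril proteins of the latent TGF-beta binding family, led the partners. Ltbp1 had 939 CPM against 72.4 CPM, for a log2 ratio of 3.69 (3.55 to 3.85), and Ltbp2 was 621 against 55.5 CPM, at 3.48 (3.31 to 3.66). Corresponding ratios in the Piezo1 fl/fl library were 2.58 and 1.31. Itga8, the alpha chain of an RGD-binding integrin, had 43.6 against 9.69 CPM, at 2.16 (1.72 to 2.64). In the other direction Mmp14, a membrane-bound matrix protease, had 236 CPM against 1555 CPM and a log2 ratio of -2.72 (-2.81 to -2.63). Loxl2, a lysyl oxidase-like enzyme, had 483 against 2118 CPM, at -2.13 (-2.20 to -2.07), and Itga5, the fibronectin receptor alpha chain, 44.7 against 73.5 CPM, at -0.72. Lox, the enzyme that cross-links elastin, was level at 1272 and 1281 CPM.

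Fibroblast-like cells differed from SSPC-1-like cells in both directions, and 8 of the 10 genes kept their sign in both libraries. The share of all genes that kept their sign was not computed, so this count has nothing to be set against. Efemp1, Mfap5, Fbn1 and Fbln2 were higher in fibroblast-like cells, with control log2 ratios of 5.99, 2.34, 1.86 and 1.39 and Piezo1 fl/fl ratios of 6.78, 2.13, 2.23 and 2.21. Mfap4, Fbn2, Mfap2 and Fbln1 were higher in SSPC-1-like cells, at -3.77, -3.73, -1.33 and -1.03 in the control, and at -3.22, -3.23, -0.98 and -1.48 in the other library. Eln changed side, from -0.71 to 0.34, and Fbln5 from -0.29 to 0.23. Tendon-like cells were close to SSPC-1-like cells in the control, where all genes with enough UMIs but Fbn2 (1.36) and Mfap2 (-1.24) had log2 ratios between -0.49 and 0.05. They were less alike in the Piezo1 fl/fl library, where Mfap5 (1.07) and Fbln2 (1.58) were at least 2-fold higher in tendon-like cells and Mfap4 (-1.52) and Fbln1 (-1.35) at least 2-fold lower. The share of all genes past 2-fold between tendon-like and SSPC-1-like cells was not computed either.

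The third comparison set the Piezo1 fl/fl library beside the control in each class with 50 or more cells in both. In fibroblast-like cells 3 of 10 genes were past 1.5-fold, where 9.99% of 10945 genes were. In SSPC-1-like cells 3 of 9 were, against 13.8% of 9610 genes, and in osteogenic cells 4 of 9, against 12% of 8982. Tendon-like cells had 6 of 9 past 1.5-fold, against 19.9% of 6548, mural-like cells 3 of 7 against 8.79% of 6345, and lining-like cells 3 of 8 against 21.9% of 4485. The lining markers themselves summed to 148483 CPM in control and 50170 CPM in Piezo1 fl/fl lining-like cells, and their part in that count was not tested. The 3 lining-like genes, all higher in the Piezo1 fl/fl library, were Fbn1 (49 control and 238 Piezo1 fl/fl UMIs), Fbn2 (9 and 62) and Mfap2 (10 and 79). Each passed the minimum of 50 UMIs only through the library where it was high. The same held for Fbln1 in mural-like cells (11 and 51 UMIs) and Fbn2 in osteogenic cells (50 and 11). None of the 5 genes measured in endothelial-like cells was past 1.5-fold, against 15.9% of 4385 genes. Typing each cell by its marker counts instead of clusters gave 4 for endothelial-like and 9 for osteogenic cells, and a 10% mitochondrial limit gave 1 for fibroblast-like cells. The classes are not made of the same clusters in both libraries, and the counts come from 2 samples with no replicate.

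**Figure D3:**
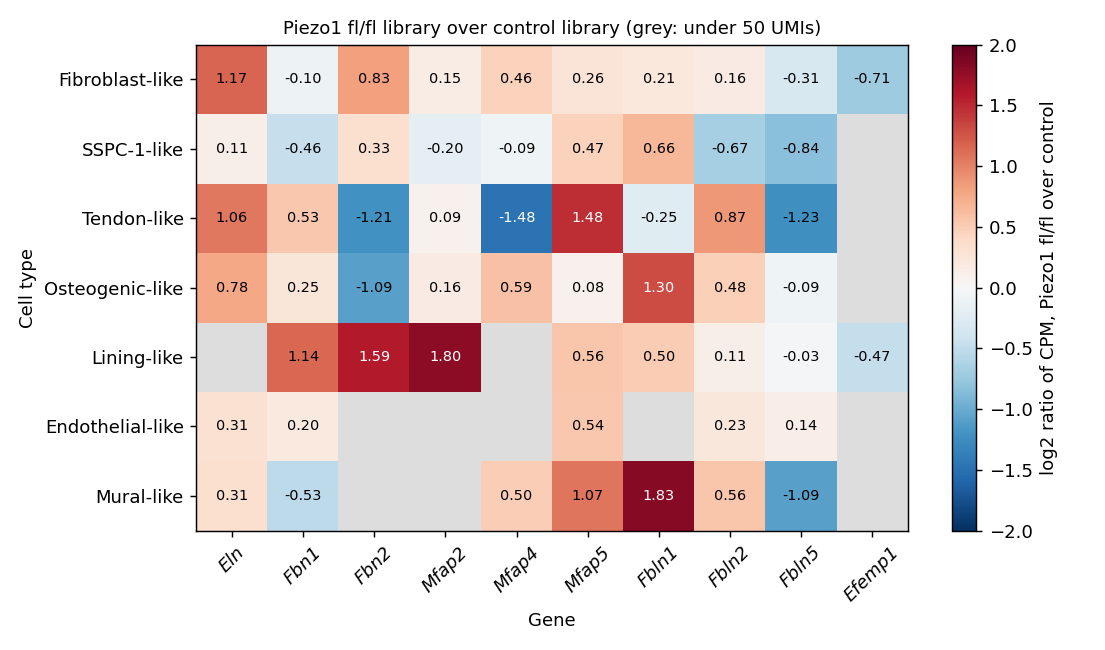
Log2 ratio of CPM, Piezo1 fl/fl library over control library, for each gene (columns) in each class of cells (rows); red is higher in the Piezo1 fl/fl library, blue is lower, and grey marks fewer than 50 UMIs in both libraries together. Eln is red in the fibroblast-like (1.17) and tendon-like (1.06) rows, Fbln5 is blue in the SSPC-1-like and tendon-like rows, and the endothelial-like row is pale.

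Eln had the largest ratio of the 10 genes in fibroblast-like cells. It went from 311 CPM (299 to 322) in the control to 699 (685 to 714) in the Piezo1 fl/fl library, 2.25-fold higher, with a log2 ratio of 1.17 (1.11 to 1.23). Of 10945 genes, 81 had a higher ratio. This direction was not shared by all fibroblast-like clusters. Between the Gdf10 fibroblast-like clusters Eln went from 530 to 3404 CPM, a log2 ratio of 2.68 (2.61 to 2.76), while between the Pi16 fibroblast-like clusters it went from 122 to 35.7 CPM, at -1.77 (-2.05 to -1.50). Between the same Gdf10 fibroblast-like clusters the log2 ratio was 1.65 for Mfap4, 1.31 for Fbln1, -1.08 for Fbln2 and -4.30 for Efemp1. These clusters were not alike in makeup: in the Piezo1 fl/fl library Gdf10 stood at 3154 CPM against 1124 in the control, Inmt at 471 against 179, and Abcc9, also a pericyte gene, at 569 against 73.5. Tendon markers summed to 1257 CPM in Piezo1 fl/fl fibroblast-like cells and 637 in the control, and Pi16 markers to 2815 and 3378. Genes induced by dissociation summed to 15303 and 15335, but clusters differed. In the Pi16 fibroblast-like cluster they summed to 5257 CPM in the Piezo1 fl/fl library and 15681 in the control. The other fibroblast-like cells of the Piezo1 fl/fl library had 21224. Gdf10 markers in the Pi16 fibroblast-like clusters summed to 205 and 528 CPM, so these too were unlike in makeup. The part of these sums in the Eln differences was not tested.

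Because the clusters were cut differently, cells were also chosen by a single marker after thinning each to 2500 UMIs, a choice made after the clusters had been seen. Cells with an Inmt UMI gave 580 CPM of Eln in the control (196 cells) against 2019 in the Piezo1 fl/fl library (145 cells), 3.48-fold higher. Cells with a Gdf10 UMI gave 472 and 1584 CPM (701 and 625 cells), and cells with a Pi16 UMI 251 and 1216 CPM (454 and 593 cells), a log2 ratio of 2.27 (2.09 to 2.46). So Eln was higher in the Piezo1 fl/fl library among cells with a Pi16 UMI, although it was lower between the Pi16 fibroblast-like clusters. In the Piezo1 fl/fl library the 625 and 593 cells with a Gdf10 or Pi16 UMI outnumbered the 225 Gdf10 and 552 Pi16 fibroblast-like cells. These choices therefore included cells of other types there. Cells with an Egfl6 UMI, a marker of SSPC-1, gave 430 and 538 CPM. Cells with a UMI of Cdh5, an endothelial marker, gave 455 and 680 CPM, a log2 ratio of 0.58 (0.27 to 0.90), and cells with a UMI of Rgs5, a mural marker, had a ratio of 0.18 (-0.15 to 0.51). Cells with a Tnmd UMI, a tendon marker, gave 415 and 510 CPM, but they numbered 734 and 1018, more than the 210 and 402 tendon-like cells, so they were mostly cells of other types. A Prg4, Tnn or Bglap UMI was likewise found in 1355, 1354 and 612 control cells, more than the 55 lining-like, 797 osteogenic and 60 mature osteoblast-like cells there, so these markers did not pick out a type and no level is given for them.

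**Figure D4:**
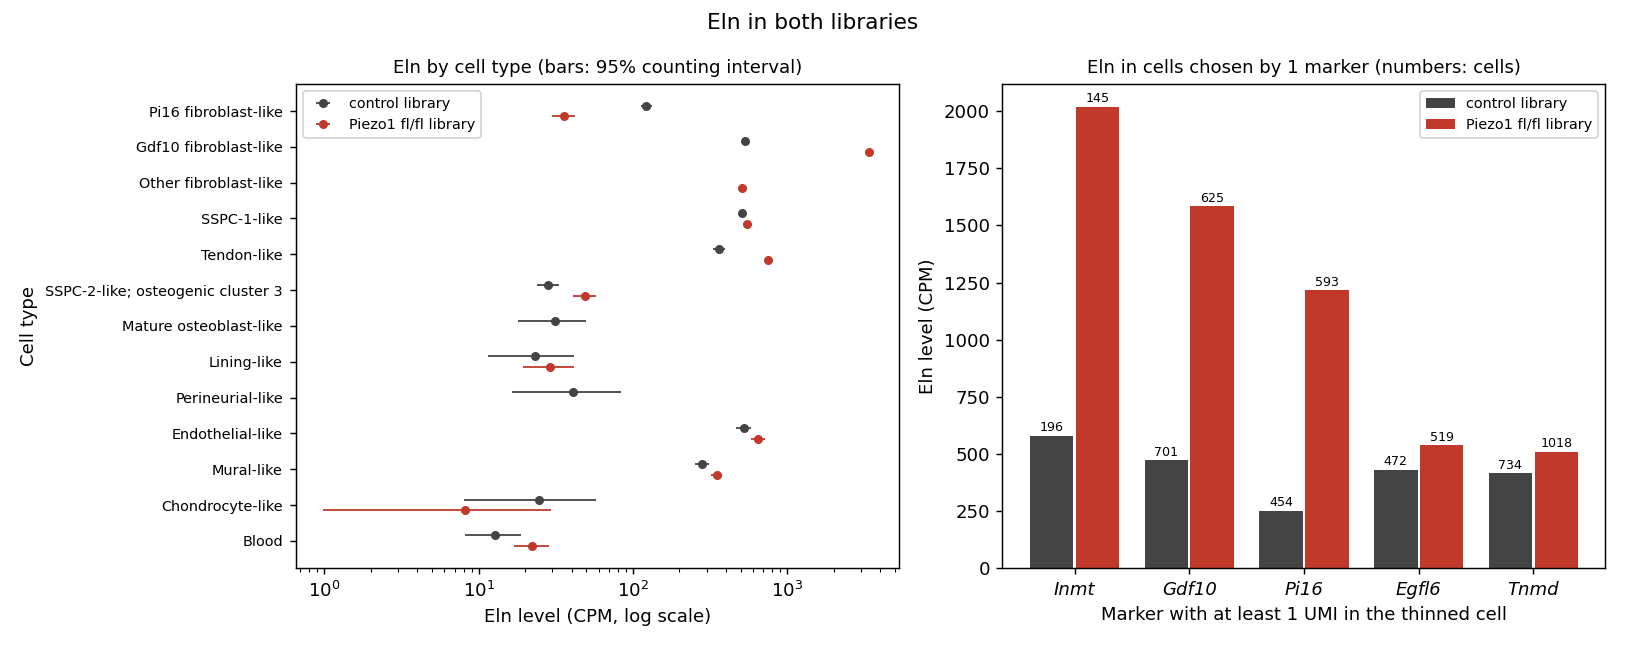
Eln level in both libraries: by cell type on a log axis in CPM, with exact 95% counting intervals as bars (left), and in thinned cells with at least 1 UMI of a single marker, in CPM with the number of cells above each bar (right). The Piezo1 fl/fl point for Gdf10 fibroblast-like cells (3404 CPM) lies apart from all others, and the Inmt, Gdf10 and Pi16 bars are higher in the Piezo1 fl/fl library while the Egfl6 and Tnmd bars differ less (430 and 538, 415 and 510 CPM).

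Over whole fibroblast-like classes, 7 of the 10 genes were within 1.5-fold. Fbn1 had a log2 ratio of -0.10, Fbln2 0.16, Mfap2 0.15, Fbln1 0.21 and Mfap5 0.26, Mfap4 0.46 and Fbln5 -0.31. Cells chosen by 1 marker did not all stay within this range: with a Pi16 UMI, Mfap4 was 1.86-fold and Fbln1 1.65-fold higher in the Piezo1 fl/fl library, and with a Gdf10 UMI Mfap5 was 1.61-fold higher. Efemp1 was lower in the Piezo1 fl/fl library, at 201 against 328 CPM, a log2 ratio of -0.71 (-0.78 to -0.63). It was also lower among cells chosen by Pi16 (-0.87), Gdf10 (-0.57) or Inmt (-0.24), the last with an interval of -0.81 to 0.31. Fbn2 rested on 16 and 41 UMIs.

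SSPC-1-like cells showed a different set. Fbln1 went from 971 CPM to 1540 CPM in the Piezo1 fl/fl library, a log2 ratio of 0.66 (0.61 to 0.72). Fbln5 was lower, at 351 and 196 CPM, -0.84 (-0.96 to -0.72), and Fbln2 was lower, at 527 and 332 CPM, -0.67 (-0.76 to -0.57). Eln, at 510 and 552 CPM, Mfap4, at 2557 and 2409, and Mfap2, at 109 and 95.3, were within 1.5-fold, although the Eln log2 ratio of 0.11 became 0.70 when cells were typed by marker counts. The SSPC-1-like cluster of the Piezo1 fl/fl library carried more tendon markers, summing to 6162 CPM against 2818 in the control, and fewer SSPC-1 markers, at 4406 against 7146; their part in these values was not tested. Among cells chosen by an Egfl6 UMI alone, Fbln5 was again lower (329 and 179 CPM) and Fbln1 again higher (942 and 1232 CPM), but Fbln2 was not lower (576 and 654 CPM), and Mfap5 was 2.13-fold higher (397 and 848 CPM). Mfap4 and Mfap2 were lower among these cells, with log2 ratios of -0.58 (-0.65 to -0.50) and -0.56 (-0.94 to -0.18).

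Osteogenic cells had more Fbln1 in the Piezo1 fl/fl library, 389 CPM (366 to 413) against 158 (148 to 168), a log2 ratio of 1.301 (1.17 to 1.43). The osteogenic classes differed in makeup: preosteoblast markers summed to 14115 CPM in the Piezo1 fl/fl library and 7117 in the control, SSPC-2 markers to 19813 and 29506, and tendon markers to 534 and 219, and their part in these values was not tested. Eln at 48.8 and 28.4 CPM and Mfap4 at 71.5 and 47.5 CPM were past 1.5-fold, where blood had 22.3 and 12.7 CPM of Eln and 39.8 and 26.0 CPM of Mfap4, and both had the opposite sign at a clustering resolution of 0.8 (-0.37 and -0.79); Fbn2 rested on 11 and 50 UMIs, 43 of the latter in mature osteoblast-like cells, a type the Piezo1 fl/fl library did not yield as a cluster of its own.

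Tendon-like cells had the most genes past 1.5-fold. Eln, at 754 and 362 CPM, rested on the few cells described above. Mfap5 was 1125 CPM in the Piezo1 fl/fl library and 402 in the control, at 1.48 (1.34 to 1.63), and Fbln2 was 990 and 542 CPM, at 0.87 (0.74 to 1.00). Mfap4 was lower, at 841 and 2341 CPM, a log2 ratio of -1.48 (-1.56 to -1.39), as was Fbln5, at 153 and 360 CPM, -1.23 (-1.44 to -1.02). The tendon markers themselves summed to 21686 CPM in the Piezo1 fl/fl library and 26869 in the control, and Pi16 markers to 1170 and 981. Among cells chosen by a Tnmd UMI, Mfap5 was 427 and 962 CPM and Fbln5 321 and 181 CPM, differences of the same direction, whereas Mfap4 at 2082 and 1612 CPM differed less; as said above, most of these cells were of other types. In mural-like cells Mfap5 was 100 against 47.6 CPM and Fbln1 31.0 against 8.45 CPM, the latter on 51 and 11 UMIs. These Mfap5 and Fbln1 values all lay below blood, which had 115 and 74.7 CPM of Mfap5 and 39.4 and 29.7 CPM of Fbln1, so they were not distinguished from free RNA. Fbln5 was past 1.5-fold lower, on 23 UMIs in the Piezo1 fl/fl library and 39 in the control, where its level was close to blood. After thinning no gene was past 1.5-fold in mural-like cells. Thinning removes UMIs and drops shallower cells, so genes on as few UMIs as Fbln1 and Fbln5 can leave the count by falling under 50 UMIs. That count therefore does not show that their ratios shrank.

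Fbln5 was thus lower in the Piezo1 fl/fl library in SSPC-1-like and tendon-like cells, while in endothelial-like cells, where it was highest, it was 679 CPM (614 to 750) against 617 (557 to 680), with overlapping intervals. Eln and Fbln2 in endothelial-like cells were likewise close, with log2 ratios of 0.31 (0.09 to 0.52) and 0.23 (0.07 to 0.40). In the partner list, 4 of 32 genes were past 1.5-fold in fibroblast-like cells (Fbln7, Adamtsl2 and Itga5 higher, Ctss lower), beside 9.99% of all genes, and 7 of 30 in SSPC-1-like cells, beside 13.8% (Loxl4 and Fbln7 higher; Loxl2, Ltbp1, Hmcn1, Adamtsl5 and Itga8 lower). Fbln7, a further fibulin, went from 97.6 to 228 CPM in fibroblast-like and from 13.8 to 64.2 CPM in SSPC-1-like cells, and Ltbp1 from 939 to 423 CPM in SSPC-1-like cells.

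Finally, the patterns of the genes over cell types were compared. Over the 10 cell types present in both libraries, Pearson's r between libraries on log2(CPM + 1) was 0.97 for Mfap5 and Fbln5, 0.96 for Fbn1 and Fbln2 and 0.91 for Eln, and lowest for Efemp1 (0.77) and Fbn2 (0.67). The Gdf10 and Pi16 fibroblast-like clusters, unlike in makeup between libraries, are among these 10 points. So is osteogenic cluster 3 in place of SSPC-2-like cells, and the chondrocyte-like points hold 18 and 27 cells. Among the members, Fbn1 and Mfap5 were alike (r = 0.86 for the control and 0.94 for the Piezo1 fl/fl library), as were Mfap4 and Fbln1 (0.88 and 0.86), and Mfap4 and Efemp1 were not (-0.11 and -0.31). These are descriptions over 10 types that share libraries and depth.

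Of 5677 other genes with at least 50 CPM in a type of each library, the ones whose pattern was most like each member's are given by the mean of both correlations. They were Prxl2c, Ppp1r2 and Fdx1 for Eln (0.88 for the first) and Col14a1, Il33 and Abca8b for Fbn1 (0.92). For Fbn2 they were Cmya5, Auts2 and Met (0.76). Those nearest to Mfap2 were Rab34, Chpf and Ptpn13 (0.92), to Mfap4 Ptgfr, Itgbl1 and Il11ra1 (0.90), and to Mfap5 Fstl1, Hmcn2 and Arhgap20 (0.93). Fbln1 was nearest to Mia3, Itgbl1 and Ptgfr (0.94), so Itgbl1 and Ptgfr stood beside both Mfap4 and Fbln1. Fbln2 was nearest to Cd34, Cyb561 and Arhgef10 (0.92), Fbln5 to Palm, Ltbp4 and Cyp2d22 (0.95), and Efemp1 to Cd55, Nova1 and Glud1 (0.89). Cd55 is one of the markers that named the Pi16 fibroblast-like type, and Ltbp4 is one of the partner genes.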

How the data were processed

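Gene by cell matrices of UMI counts, 1 per genotype, were used as deposited by the authors. Per the labels, the submitters' processing notes name fastp, UMI-tools, STAR and Seurat 4.0.3; the genome build, annotation and strand setting are not given in the sources used here. Of 31253 feature identifiers, 31107 matched GENCODE vM21. Total counts were 28030299 UMIs for the control library and 32337308 for the other.

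The filter kept cells of 1000 to 5000 detected genes with less than 25% of UMIs from mitochondrial genes, and doublets called by Scrublet (scanpy 1.11.5, expected rate 0.05) were removed: 46 of 5551 scored control cells (0.829%) and 67 of 6784 (0.988%). Cell limits and clustering settings were those the study gives for another data set, its Angptl7-lineage cells before and after fracture. It gives none apart for its Prx1-labelled periosteal cells. Here each library was clustered alone, without the integration of libraries used there. Clustering ran in Seurat 5.3.0 (R 4.3.3) after LogNormalize (scale factor 10000), from 2000 variable features and 20 of 30 principal components at resolution 0.4. The 10 genes, their partners, and the mural and dissociation lists were also taken out of the features.

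A marker counted as detected with a UMI in 10% of a cluster's cells and a CPM 2-fold over the median of the other clusters. A name needed 3 detected markers, a mean log2 ratio of 2 and a gap of 0.5 to the next class. These limits were set after the clusters were seen, and the members, markers and gene lists were chosen with earlier results of these data known. By these limits osteogenic cluster 3 of the Piezo1 fl/fl library took the SSPC-2 name. That name was withheld afterwards, outside the limits, because more preosteoblast than SSPC-2 markers stood among its leading genes. SSPC-2-like cells had been planned for the comparison between libraries, and the osteogenic class took their place for this reason.

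UMIs were summed per type and divided by all UMIs of the type (CPM). Intervals are exact at 95% (Poisson for levels, conditional binomial for ratios, Clopper-Pearson for shares; scipy 1.17.1) and cover counting error only. Log2 ratios add 0.5 UMIs to both sums, and counts of genes past a fold (2 between types, 1.5 between libraries) use genes with 50 or more UMIs in both sums together. With 1 library per genotype no test was possible. The 10 members were named in every comparison, partners by list and, for SSPC-1-like against SSPC-2-like cells, the 3 with the largest ratio in each direction; others named among the partners were chosen after their values were seen, except those printed as all that passed a fold. Interval coverage was tested on simulated Poisson counts only. These lack the uneven spread over cells seen in the real data, so that test does not bear on it. Alternatives were the gene and mitochondrial limits, doublets kept, resolution 0.8, members kept among the features, typing by marker counts, mean CPM per cell, another denominator, thinning to 2500 UMIs and no UMI minimum.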

Additional observations from a re-analysis of the deposited data

Results flagged for a closer look

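Fbn2, Mfap4 and Fbln2 differed between the libraries in opposite directions in different cell classes. Fbn2 had a log2 ratio, Piezo1 fl/fl over control, of 1.59 (0.64 to 2.85) in lining-like cells and -1.21 (-1.74 to -0.70) in tendon-like cells. Mfap4 had 0.59 (0.32 to 0.86) in osteogenic cells and -1.48 (-1.56 to -1.39) in tendon-like cells. Fbln2 had 0.87 (0.74 to 1.00) in tendon-like cells and -0.67 (-0.76 to -0.57) in SSPC-1-like cells. With 1 library per genotype the difference between classes was not tested, and the intervals cover counting error only. Fbn2 rested on 9 and 62 UMIs in lining-like cells and on 77 and 57 in tendon-like cells. Lining-like cells differed in their own markers, with sums of 148483 CPM for the control and 50170 CPM for Piezo1 fl/fl, and the part of this in the Fbn2 value was not tested. Mfap4 in osteogenic cells rested on 276 and 201 UMIs, was near blood (47.5 CPM in the control against 26.0, and 71.5 CPM in Piezo1 fl/fl cells against 39.8), and had a log2 ratio of -0.79 at a clustering resolution of 0.8, the same side as in tendon-like cells. Fbln2 in SSPC-1-like cells was 0.46 with cells typed by marker counts and 0.18 with an Egfl6 UMI, again the same side as in tendon-like cells, so for Mfap4 and Fbln2 the opposition depends on how cells were typed.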

How the results depend on the processing

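Depth limits Fbn2, and Efemp1 outside fibroblast-like cells, to wide intervals. Counts of genes 2-fold higher in SSPC-1-like than SSPC-2-like cells ranged from 7 to 8 in the control and from 7 to 9 in the Piezo1 fl/fl library, and the Eln ratio between libraries in fibroblast-like cells from 1.10 to 1.41 over the alternatives other than the choice of cells by 1 marker. Of 50 single-gene ratios, 30 kept their sign under every alternative. For endothelial-like cells the count of genes past 1.5-fold between libraries went from 0 to 2 with 500 to 6000 genes per cell, 1 with doublets kept, 2 with members among the features, 4 with marker typing, 1 with mean CPM per cell and 2 with no UMI minimum. For osteogenic cells it went from 4 to 7 with members among the features, 9 with marker typing and 1 with mean CPM per cell. The fibroblast-like count went from 3 to 1 under 10% mitochondrial UMIs, the lining-like count from 3 to 5 with marker typing, and the mural-like count from 3 to 0 after thinning and to 5 with no minimum. After thinning a gene can also leave a count by falling under 50 UMIs. With marker typing 1 gene was 2-fold lower in SSPC-1-like cells of the Piezo1 fl/fl library, where none had been. Ratios past their fold with 50 or more UMIs that changed sign were Fbn2 in osteogenic cells (2.29 with 500 to 6000 genes), Eln (-0.37) and Mfap4 (-0.79) in osteogenic cells at resolution 0.8, and Fbln2 in SSPC-1-like cells (0.46 with marker typing and 0.18 with an Egfl6 UMI). Fbn2 in fibroblast-like cells became -1.89, -0.041 and -0.39 with an Inmt, Gdf10 or Pi16 UMI, alternatives added after seeing the data. The other ratios that changed sign were within the fold or under 50 UMIs. The cause was not tested. With members among the features no control cluster could be named lining-like, so that count has no value there. No paired analysis was possible because each genotype has 1 library, and for the same reason no replicate could be left out.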
